A study of Arabidopsis thaliana with 10 samples.

Results

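Triploid adm-2 seeds (3n adm-2) were compared with diploid seeds (2n) to describe what stayed away from the diploid level, and what went past it, in triploid seeds that carry a mutation in a paternally expressed gene. The comparison was taken over genes with a mean RPKM (reads per kilobase of gene, scaled to library size) of at least 1 over its 4 libraries, which kept 18468 of the 33602 genes in the table. The gene just inside this limit, AT3G13210, averaged 1.0002 RPKM, and the gene just outside it, AT1G28815, averaged 0.9998 RPKM. RNA was sequenced from seeds of 20 siliques per library at 6 days after pollination (DAP), with 2 libraries per cross and 10 libraries in 5 crosses in the series. All mothers were wild-type Landsberg erecta (Ler). The 3n adm-2 seeds had osd1 adm-2 mutant pollen parents in the Columbia (Col) background, triploid seeds (3n) had osd1 pollen parents, and 2n seeds had wild-type Col pollen parents. The osd1 mutation makes pollen with an unreduced genome, so both triploid groups carry it and an extra paternal genome, and only alleles from pollen were mutated. The osd1 allele came from the accession Nossen and had been introgressed into Col by 5 backcrosses. Seeds were pooled before extraction, and each value is thus a mean over embryos, endosperm and maternal seed coat. In such bulk samples, fewer cells of a type and less RNA per cell cannot be told apart.

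After fertilization the endosperm first divides as a syncytium and later forms cell walls, and the embryo grows at its expense and then fills with oil and storage protein. Pollen with an extra genome leaves the endosperm of Arabidopsis syncytial for too long, and most such seeds abort, which is known as the triploid block. ADM is expressed from the paternal allele in the endosperm, and loss of the paternal copy is known to let many triploid seeds survive.

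In 3n adm-2 seeds 1480 genes were higher than in 2n seeds, 8.01% of the 18468 genes, and 1344 were lower, 7.28%. A gene was called when its log2 fold change, 3n adm-2 minus 2n on log2(RPKM + 0.1), was past 1 and its Benjamini-Hochberg adjusted p from limma was under 0.05. Among the called genes, 381 were higher by more than 4 on the log2 scale and 2 were lower by more than 4, while the median of all genes was 0.01. Of the 877 genes with a mean under 1 RPKM in 2n seeds, 708 were higher and 0 lower. These genes entered the comparison only through their level in 3n adm-2 seeds. Counts of such genes in the lists below are to be set beside this share. Likewise 212 of the 317 genes with a mean under 1 RPKM in 3n adm-2 seeds were lower. Among the 17274 genes with a mean of at least 1 RPKM in both groups, 772 were higher and 1132 lower, 250 and 177 of them by more than 2 on the log2 scale and 77 and 1 by more than 4. For the same 18468 genes, 3n seeds compared with 2n seeds had 1401 higher genes (7.59%) and 2062 lower genes (11.2%). These 2 comparisons share the 2n libraries, so their values are given side by side only. Compared directly with 3n seeds, 3n adm-2 seeds had 512 higher genes (2.77%) and 74 lower genes (0.401%).

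**Figure D1:**
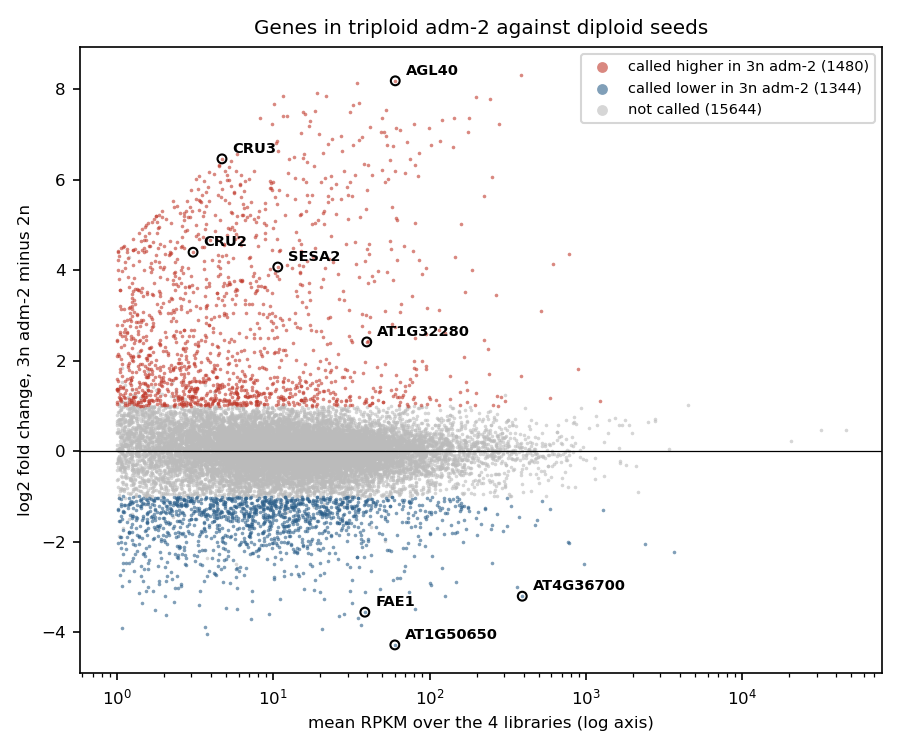
Each point is 1 of the 18468 genes, with its mean RPKM over the 4 libraries on the x axis (log scale) and its log2 fold change, 3n adm-2 minus 2n, on the y axis. Red points (1480) were called higher and blue points (1344) lower, and the highest points reach past 8 while the lowest stop near the -4.28 of AT1G50650.

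The libraries were alike in scale. RPKM summed to 730696 and 731823 in 3n adm-2 libraries and to 700509 and 701070 in 2n libraries, and 24943 to 25085 genes were above 0 in the first pair and 24217 to 24286 in the second. Read counts are not in the table, and the absolute depth is unknown. Ribosomal RNA took 12.4% and 14.2% of the sum in 3n adm-2 libraries and 10.6% and 9.24% in 2n libraries. Replicates correlated with Pearson's r of 0.996 for 3n adm-2 and 0.991 for 2n across the 18468 genes on the log2 scale. The 2n replicates stood further apart in single genes: 28 genes differed by more than 1 on the log2 scale between the 3n adm-2 replicates, against 237 between the 2n replicates. Nothing in the labels ties the replicates to separate plants, so p-values measure only the spread between these libraries.

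The targeted genes were read first. OSD1 (UVI4-LIKE, AT3G57860, an inhibitor of the anaphase-promoting complex, chr3:21426285-21428340 in TAIR10.1) had 3.35 and 2.94 RPKM in 3n adm-2 seeds, 1.91 and 1.38 RPKM in 3n seeds and 8.83 and 7.02 RPKM in 2n seeds. Its log2 fold change against 2n seeds was -1.30 ± 0.29 (SE, with an adjusted p of 0.0084), and the call was lost without 3n adm-2 replicate 2 (adjusted p = 0.057) and without 2n replicate 1 (adjusted p = 0.070, the highest over the alternatives, of which the lowest was 0.0031). Both triploid groups were thus below 2n seeds, and the maternal allele of OSD1 was intact in all of them. ADM (AT4G11940, chr4:7168173-7168967) had 0.251 and 0.237 RPKM in 3n adm-2 seeds, 2.42 and 4.01 RPKM in 3n seeds and 0.0356 and 0.212 RPKM in 2n seeds. ADM in 3n adm-2 seeds was lower than in 3n seeds, with a log2 fold change of -3.23 (adjusted p = 0.0042), and its difference from 2n seeds did not pass the threshold, at 0.74 ± 0.39 (SE, with an adjusted p of 0.17). Within 1 Mb of OSD1, 6.42% of 405 genes were higher and 5.93% lower in 3n adm-2 than in 2n seeds, and within 1 Mb of ADM the shares were 8.16% and 7.09% of 282 genes, both near the shares of all genes.

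Markers of the tissues in a seed were examined next, because the pools can differ in tissue make-up. Of 17 embryo markers, 15 passed the RPKM limit. In 3n adm-2 seeds 5 were lower (33.3%, beside 7.28% of all genes) and 10 not called, with a median of -0.91. Of the 5, 2 had a mean under 1 RPKM in 3n adm-2 seeds. Their summed level was 251 and 254 RPKM in 3n adm-2 seeds, against 633 and 607 RPKM in 2n seeds. PDF1, an epidermal gene that makes up most of this sum, had 152 and 149 RPKM in 3n adm-2 seeds, 149.6 and 152 RPKM in 3n seeds and 489 and 462 RPKM in 2n seeds. WOX9, a homeobox gene of the early embryo, had 4.02 and 4.26 RPKM in 3n adm-2 seeds, against 20.12 and 20.0 RPKM in 2n seeds, a log2 fold change of -2.25 (adjusted p = 6.0e-05). SCR, which patterns the ground tissue, had 11.3 and 11.4 RPKM in 3n adm-2 seeds, against 29.6 and 27.3 RPKM in 2n seeds, a log2 fold change of -1.31 (adjusted p = 5.4e-05). In each of these 3 genes both 3n adm-2 libraries were below both 2n libraries, as they were in 40.1% of the 18468 genes, while in 41.9% of all genes both were above. Groups that did not overlap were thus common among all genes.

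The seed coat markers stood closer to 2n seeds. All 22 passed the limit, and limma called 0 of them in either direction, with a median of 0.27. At an unadjusted p under 0.05, 9 were higher and 2 lower by smaller changes, and the rank product method called 0. That method called 158 genes higher and 104 lower of all 18468, and also 0 of the 25 genes of mitosis and cytokinesis and 1 of the 32 fatty acid genes described further on. Of the 11 storage protein genes past the limit it called 1 higher and 1 lower, and of the 8 oil body protein genes 0. TT4, chalcone synthase of the flavonoid pathway, had 893 and 923 RPKM in 3n adm-2 seeds, against 678 and 779.9 RPKM in 2n seeds, and MUM4, which makes mucilage, had 715 and 690.1 RPKM in 3n adm-2 seeds, against 742 and 875 RPKM in 2n seeds. Of 12 endosperm markers, 8 passed the limit, and 4 were higher (FWA, AGL62, FIS2 and MEA) and 1 lower (ALE1). The 3 with a mean under 1 RPKM in 2n seeds were all among the higher, which left 1 higher of the 5 with at least 1 RPKM. Of 20 pollen markers, 8 passed, with 3 higher and 1 lower, and the 3 were among the 4 with a mean under 1 RPKM in 2n seeds. None of the 4 with at least 1 RPKM was higher. The whole list summed to 43.0 and 40.5 RPKM in 3n adm-2 seeds, against 31.3 and 38.0 RPKM in 2n seeds. VGD1, a pectin methylesterase of pollen tubes, had 2.84 and 2.46 RPKM in 3n adm-2 seeds, against 0.153 and 1.11 RPKM in 2n seeds, and the calls of VGD1, VGDH1 and BCP1 were lost without 2n replicate 1, with either 3n adm-2 replicate left out, with only the 4 libraries in the fit and with a pseudocount of 1. The part of tissue make-up in the results that follow was not tested.

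Several seed storage protein genes went past the diploid level in 3n adm-2 seeds. Of 13 listed genes for cruciferins, 2S albumins and vicilin-like proteins, 11 passed the RPKM limit, and in 3n adm-2 seeds 5 were higher and 2 lower than in 2n seeds, with a median of 1.03, beside 0.01 for all genes. In 3n seeds, set against the same 2n libraries, 10 of the 11 were lower and the median was -3.09. Against 3n seeds, all 11 were higher in 3n adm-2 seeds, with a median of 3.70. Summed over the list, RPKM came to 199 and 195 in 3n adm-2 seeds, to 21.7 and 13.3 in 3n seeds and to 829.7 and 675 in 2n seeds. The 2 members with a mean under 1 RPKM in 2n seeds, CRU2 and CRU3, entered only through 3n adm-2 seeds. The sum is led by AT4G36700, a vicilin-like cupin gene, which had 77.1 and 75.4 RPKM in 3n adm-2 seeds, 16.2 and 9.79 RPKM in 3n seeds and 773 and 642 RPKM in 2n seeds. Its log2 fold change against 2n seeds was -3.21 ± 0.33 (SE, with an adjusted p of 1.4e-04), so the most abundant member of the list fell while other members rose.

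Overshoot was defined as a call against 2n seeds in 3n adm-2 seeds with the opposite call in 3n seeds. It was met by 5 genes that were higher in 3n adm-2 and lower in 3n seeds, and limma called 0 genes in the reverse direction, also 0 at unadjusted p values under 0.05, where the first direction had 6. Of the 5, CRU2, SESA2, SESA3 and SESA4 are storage protein genes. CRU2 had a mean under 1 RPKM in both 2n and 3n seeds. Its lower call in 3n seeds thus rests on values near the pseudocount of 0.1. The fifth, AT1G32280, is annotated to the superfamily of bifunctional inhibitors, lipid transfer proteins and seed storage 2S albumins, the same annotation as that of AT5G38170 and AT5G38160, which were both lower in 3n adm-2 seeds. SESA2, SESA3 and SESA4 lie in a tandem array with SESA1 on chromosome 4 (from chr4:13607329-13608031 to chr4:13613596-13614283 in TAIR10.1), and AT1G32280 is at chr1:11646189-11647001.

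The 250 bases before the annotated start of the array genes are shown because the array members share sequence elements yet stood at unequal levels. The sequences were read from TAIR10.1 on the plus strand (SESA1 chr4:13607079-13607328, SESA2 chr4:13609091-13609340, SESA3 chr4:13611546-13611795, SESA4 chr4:13613346-13613595 and OLEO3 chr5:20819818-20820067), 5′ to 3′, and capitals mark the RY element CATGCA or its reverse complement TGCATG, the sequence bound by B3 regulators such as FUS3 and ABI3. OLEO3, an oleosin gene that stayed below the diploid level, is set beside them.
SESA1: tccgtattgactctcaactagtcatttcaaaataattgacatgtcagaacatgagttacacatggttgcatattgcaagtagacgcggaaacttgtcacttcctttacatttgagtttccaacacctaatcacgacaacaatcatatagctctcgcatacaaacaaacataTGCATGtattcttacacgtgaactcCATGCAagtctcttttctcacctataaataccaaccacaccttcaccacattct
SESA2: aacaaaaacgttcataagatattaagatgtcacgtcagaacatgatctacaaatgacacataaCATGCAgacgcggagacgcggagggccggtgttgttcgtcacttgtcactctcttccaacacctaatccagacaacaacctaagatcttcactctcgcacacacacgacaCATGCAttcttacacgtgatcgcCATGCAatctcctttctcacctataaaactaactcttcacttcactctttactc
SESA3: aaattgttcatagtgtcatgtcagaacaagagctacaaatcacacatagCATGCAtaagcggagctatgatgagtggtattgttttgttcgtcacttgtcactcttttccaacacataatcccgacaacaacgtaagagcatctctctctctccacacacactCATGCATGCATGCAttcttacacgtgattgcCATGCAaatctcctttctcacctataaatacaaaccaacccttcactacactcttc
SESA4: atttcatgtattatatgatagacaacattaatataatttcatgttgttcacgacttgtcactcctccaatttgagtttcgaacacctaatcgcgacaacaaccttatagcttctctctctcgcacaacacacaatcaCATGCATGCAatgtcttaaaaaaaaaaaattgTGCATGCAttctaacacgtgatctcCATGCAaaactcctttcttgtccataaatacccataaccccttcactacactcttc
OLEO3: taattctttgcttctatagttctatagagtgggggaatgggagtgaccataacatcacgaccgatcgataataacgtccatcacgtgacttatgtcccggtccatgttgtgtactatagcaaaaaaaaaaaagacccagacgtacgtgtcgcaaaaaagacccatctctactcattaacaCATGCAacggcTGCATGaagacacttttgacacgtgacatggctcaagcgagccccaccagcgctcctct

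Counting both strands and overlapping matches, the window of SESA1 held 2 RY elements, that of SESA2 3, that of SESA3 7, that of SESA4 6 and that of OLEO3 2. No match to these letters was found in the window of AT1G32280. The G-box CACGTG was found 1 time in each SESA window and 2 times in that of OLEO3, and not in that of AT1G32280. An RY element was present in 9 of the 11 storage protein windows (81.8%) and in 8 of the 8 oil body protein windows (100%), against 8.51% of 26711 windows of protein-coding genes. For the G-box the shares were 7 of 11 (63.6%), 4 of 8 and 6.58%. Genes with RY elements were thus found both above the 2n level, as SESA4, and below it, as OLEO3.

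CRU2, a cruciferin of the globulin type, had 6.15 and 5.76 RPKM in 3n adm-2 seeds, 0.0229 and 0 RPKM in 3n seeds and 0.216 and 0.160 RPKM in 2n seeds. Against 2n seeds it changed by 4.40 ± 0.34 (SE, with an adjusted p of 3.1e-05) on the log2 scale, and 3n seeds differed from 2n seeds by -1.37 (adjusted p = 0.011). Both 3n adm-2 libraries stood far above all others, and both 2n libraries were above 3n.

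CRU3, another cruciferin, was near 0 in both other groups, with 9.45 and 9.34 RPKM in 3n adm-2 seeds, 0.0208 and 0 RPKM in 3n seeds and 0.0157 and 0 RPKM in 2n seeds. Its log2 fold change was 6.46 ± 0.35 (SE, with an adjusted p of 4.5e-06), a value that depends on the pseudocount and was 3.37 with a pseudocount of 1 and 9.20 with 0.01. CRA1, a further cruciferin, had 15.0 and 16.8 RPKM in 3n adm-2 seeds, 1.93 and 1.19 RPKM in 3n seeds and 7.59 and 7.90 RPKM in 2n seeds, and its log2 fold change of 1.03 ± 0.42 (SE, with an adjusted p of 0.083) did not pass. The 3n adm-2 libraries of CRA1 were nonetheless above both 2n libraries.

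The array of 2S albumins, small storage proteins rich in sulfur, gave 3 calls of 4. SESA2 had 19.8 and 20.8 RPKM in 3n adm-2 seeds, 0.0508 and 0.375 RPKM in 3n seeds and 1.02 and 1.21 RPKM in 2n seeds, a log2 fold change of 4.07 ± 0.63 (SE, with an adjusted p of 0.0014) against 2n seeds. SESA4 had 13.5 and 12.4 RPKM in 3n adm-2 seeds, 1.14 and 0.712 RPKM in 3n seeds and 2.63 and 1.63 RPKM in 2n seeds, a log2 fold change of 2.59 ± 0.29 (SE, with an adjusted p of 2.4e-04). In both genes all 3n adm-2 values were above all 2n values, which were above all 3n values.

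SESA3 had 45.4 and 44.2 RPKM in 3n adm-2 seeds, 0.437 and 0.339 RPKM in 3n seeds and 20.9 and 7.87 RPKM in 2n seeds, with 2n replicates far apart. Its log2 fold change of 1.79 ± 0.54 (SE, with an adjusted p of 0.028) was 2.49 without 2n replicate 1 and 1.09 without 2n replicate 2, and the call was lost without 2n replicate 2, without 3n adm-2 replicate 1 or 2 and with only the 4 libraries in the fit (adjusted p between 0.013 and 0.19 over the alternatives). SESA1, the first gene of the array, had 5.27 and 3.70 RPKM in 3n adm-2 seeds, 0.558 and 0.131 RPKM in 3n seeds and 9.97 and 7.86 RPKM in 2n seeds, and its log2 fold change against 2n seeds was -0.99 ± 0.47 (SE, with an adjusted p of 0.13). SESA1 was thus the member of the array whose 3n adm-2 values lay below both 2n values. No stretch of 50 bases was shared between the 4 SESA genes, or between the 4 cruciferin genes, although shorter similarity can still misplace reads.

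AT1G32280, the gene of the lipid transfer protein and 2S albumin superfamily, had 69.4 and 64.3 RPKM in 3n adm-2 seeds, 0.275 and 0.0903 RPKM in 3n seeds and 12.4 and 12.4 RPKM in 2n seeds. On the log2 scale it changed by 2.42 ± 0.25 (SE, with an adjusted p of 1.7e-04) against 2n seeds and 7.97 (adjusted p = 3.0e-05) against 3n seeds, and its 2n replicates were nearly equal. Among the remaining storage genes, PAP85, AT2G28490 and AT2G18540, vicilin-like or cupin genes, differed by 0.51 (adjusted p = 0.51), -0.82 (adjusted p = 0.2) and -1.22 (adjusted p = 0.028). Of these AT2G18540 was called lower.

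The number of overshooting genes moved with the settings. It was 2 with a pseudocount of 1 (AT1G32280 and SESA3), 3 without 2n replicate 2 (CRU2, SESA4 and AT1G32280) and 4 without 2n replicate 1 (AT1G32280, SESA3, PAP85 and ATS1). With a pseudocount of 0.01 it was 4, without SESA2. With the RPKM limit applied before the fit it was 6, with CRA1 added. AT1G32280 was among them in each of the 10 alternatives in which the count could be made.

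**Figure D2:**
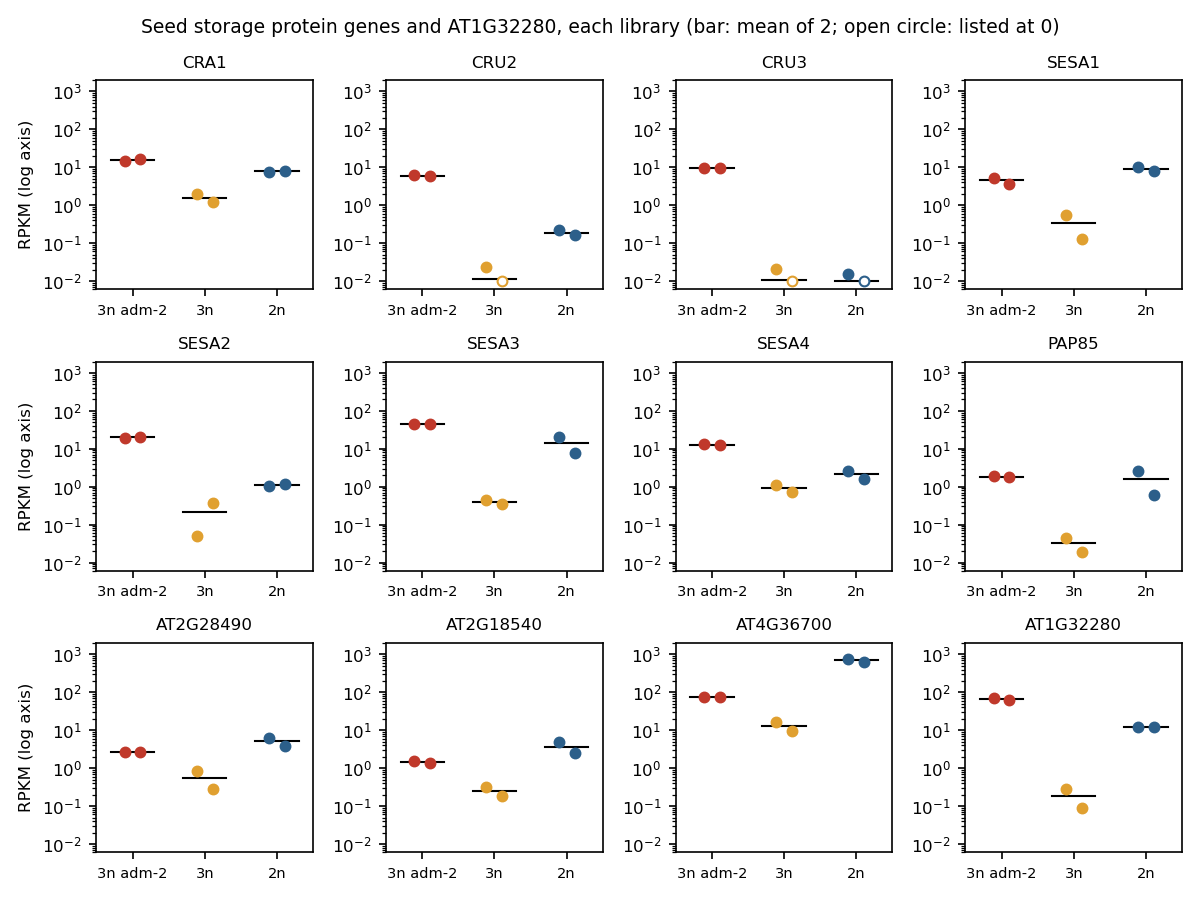
RPKM (log axis) of the 11 storage protein genes past the limit and of AT1G32280 in each library, with 3n adm-2 left of 3n and 2n, the mean of 2 libraries as a bar, and open circles at 0.01 for values listed at 0. CRU2, CRU3, SESA2, SESA4 and AT1G32280 have both 3n adm-2 points above every other point, whereas for AT4G36700 both 3n adm-2 points, at 77.1 and 75.4 RPKM, lie below both 2n points.

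Oil body protein genes were mostly lower in 3n adm-2 seeds than in 2n seeds. Of 11 listed oleosins, caleosins and steroleosins, 8 passed the limit, and 6 were lower in 3n adm-2 seeds and the other 2 not called, with a median of -1.54. In 3n seeds all 8 were lower, with a median of -2.81. The list summed to 216 and 217 RPKM in 3n adm-2 seeds, 99.3 and 62.3 RPKM in 3n seeds and 1207 and 688 RPKM in 2n seeds. In the 2n pair, replicate 1 was above replicate 2 for all 8 genes.

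OLEO3, an oleosin that coats oil bodies, had 71.4 and 79.1 RPKM in 3n adm-2 seeds, 42.2 and 26.5 RPKM in 3n seeds and 529.8 and 328 RPKM in 2n seeds, a log2 fold change of -2.47 ± 0.34 (SE, with an adjusted p of 6.8e-04). OLEO1, the major oleosin of mature seeds, had 42.3 and 40.3 RPKM in 3n adm-2 seeds, 11.9 and 7.20 RPKM in 3n seeds and 175 and 75.8 RPKM in 2n seeds, a log2 fold change of -1.48 (adjusted p = 0.019). The call of OLEO1 was lost without 2n replicate 1, where the change was -0.87, with either 3n adm-2 replicate left out and with only the 4 libraries in the fit. Both genes lay between the 3n and 2n libraries. AT3G01570, a further oleosin, had 35.2 and 31.2 RPKM in 3n adm-2 seeds, against 224 and 123 RPKM in 2n seeds, a log2 fold change of -2.32 (adjusted p = 0.0022). ATS1, a caleosin, was the member above 2n seeds, with 1.66 and 1.496 RPKM in 3n adm-2 seeds, against 0.904 and 0.693 RPKM in 2n seeds, a log2 fold change of 0.91 (adjusted p = 0.013) that did not pass the fold threshold.

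Transcription factors that drive maturation were lower in part. All 10 listed regulators passed the limit, and 6 were lower and 4 not called in 3n adm-2 seeds, of which 2 had a mean above that of 2n seeds, with a median of -1.31, beside 8 lower and a median of -1.78 in 3n seeds. L1L, a NF-YB subunit close to LEC1, had 15.5 and 16.0 RPKM in 3n adm-2 seeds, 4.61 and 2.87 RPKM in 3n seeds and 132 and 93.8 RPKM in 2n seeds, a log2 fold change of -2.81 ± 0.32 (SE, with an adjusted p of 2.6e-04). FUS3, a B3 factor, had 7.49 and 7.21 RPKM in 3n adm-2 seeds, 4.03 and 3.61 RPKM in 3n seeds and 32.7 and 28.3 RPKM in 2n seeds, a log2 fold change of -2.04 ± 0.22 (SE, with an adjusted p of 2.2e-04). ABI3, a B3 factor of the abscisic acid response, had 15.4 and 14.6 RPKM in 3n adm-2 seeds, 13.9 and 10.99 RPKM in 3n seeds and 64.8 and 55.5 RPKM in 2n seeds, a log2 fold change of -1.99 ± 0.16 (SE, with an adjusted p of 3.7e-05). In the 3 genes both 3n adm-2 libraries were below both 2n libraries, and ABI3 was close to its 3n level.

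BZIP67, which activates cruciferin and oil genes, differed by -1.89 (adjusted p = 0.0049), WRI1, which activates fatty acid synthesis, by -1.28 (adjusted p = 7.1e-05), and ABI4 by -1.33 (adjusted p = 9.5e-04). LEC1 and LEC2, which start the maturation program, were not called. LEC1 had 107 and 109 RPKM in 3n adm-2 seeds, against 127 and 132 RPKM in 2n seeds, and LEC2 had 13.0 and 13.8 RPKM in 3n adm-2 seeds, against 9.70 and 10.8 RPKM in 2n seeds, where 3n seeds had 5.44 and 4.50 RPKM.

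Genes of fatty acid and oil synthesis were mostly lower. All 32 listed enzymes passed the limit, and 21 were lower and 11 not called in 3n adm-2 seeds, with a median of -1.21, beside 24 lower and a median of -1.58 in 3n seeds. In the 2n pair, replicate 1 was above replicate 2 for 29 of the 32. The median was -1.09 without 2n replicate 1 and -1.30 without 2n replicate 2. Plastidic pyruvate kinase, acetyl-CoA carboxylase, the condensing enzymes, the desaturases and diacylglycerol acyltransferase had members among the 21. FAE1, which elongates fatty acids to very long chains for storage oil, had 5.97 and 5.73 RPKM in 3n adm-2 seeds, 0.148 and 0.140 RPKM in 3n seeds and 84.6 and 57.9 RPKM in 2n seeds, a log2 fold change of -3.56 ± 0.42 (SE, with an adjusted p of 3.1e-04).

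PKP-BETA1, a subunit of plastidic pyruvate kinase, had 88.5 and 85.1 RPKM in 3n adm-2 seeds, 73.1 and 68.6 RPKM in 3n seeds and 335 and 294 RPKM in 2n seeds, a log2 fold change of -1.85 ± 0.08 (SE, with an adjusted p of 1.0e-06). BCCP2, a carrier subunit of acetyl-CoA carboxylase, had 52.1 and 55.6 RPKM in 3n adm-2 seeds, against 209.7 and 177 RPKM in 2n seeds, a log2 fold change of -1.84 (adjusted p = 6.1e-05). KASI, DGAT1 and FAD3 differed by -1.64 (adjusted p = 3.7e-06), -1.40 (adjusted p = 7.0e-06) and -1.30 (adjusted p = 1.1e-04). Against 3n seeds 2 of the 32, FAE1 and BCCP2, were higher in 3n adm-2 seeds. The median of the list in that comparison was 0.39.

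**Figure D3:**
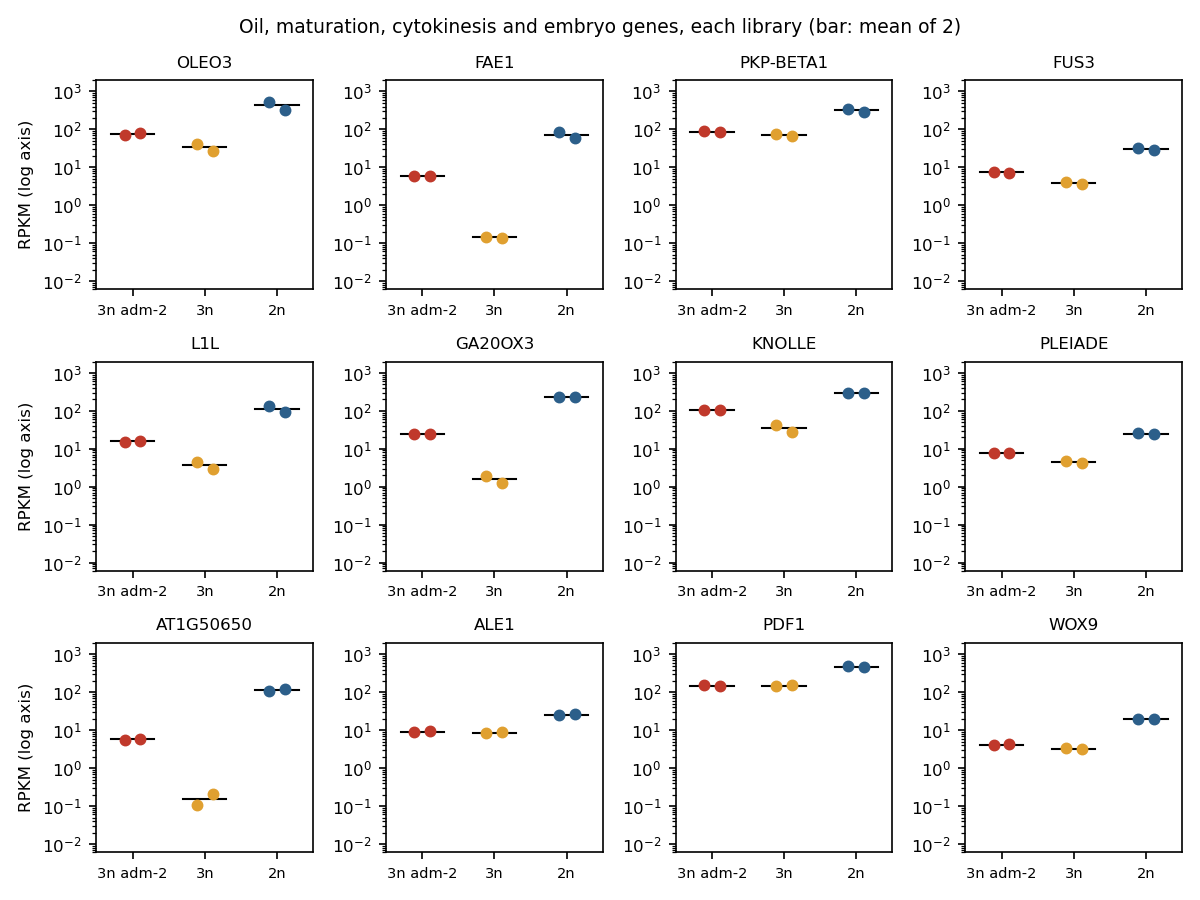
RPKM (log axis) in each library of genes for oil (OLEO3, FAE1, PKP-BETA1), maturation (FUS3, L1L), gibberellin synthesis (GA20OX3), cytokinesis (KNOLLE, PLEIADE), the embryo surface (AT1G50650, ALE1, PDF1) and the early embryo (WOX9), with 3n adm-2 left of 3n and 2n and bars for the mean of 2 libraries. In all 12 genes both 3n adm-2 points lie below both 2n points, and in PDF1, ALE1 and WOX9 they lie next to the 3n points.

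Genes of the exchange between endosperm and embryo included the largest decrease of the comparison. Of 10 listed genes 9 passed the limit, 5 lower and 2 higher. AT1G50650, a Stig1 family peptide gene, had 5.70 and 5.83 RPKM in 3n adm-2 seeds, 0.107 and 0.204 RPKM in 3n seeds and 109 and 119 RPKM in 2n seeds. On the log2 scale the change was -4.28 ± 0.58 (SE, with an adjusted p of 6.5e-04) against 2n seeds and 4.55 (adjusted p = 0.0047) against 3n seeds, and the 3 groups did not overlap.

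ALE1, the endosperm subtilase that matures a signal for the embryo cuticle, had 8.90 and 9.42 RPKM in 3n adm-2 seeds, 8.21 and 8.88 RPKM in 3n seeds and 24.6 and 27.0 RPKM in 2n seeds, a log2 fold change of -1.48 (adjusted p = 1.8e-05). TWS1, the peptide that ALE1 cleaves, differed by -1.24 (adjusted p = 5.5e-05), and GSO1, a receptor for it in the embryo, by -1.88 (adjusted p = 1.7e-04). ICE1, which acts with ZOU in endosperm breakdown, differed by -1.27 (adjusted p = 2.0e-05), and ZOU itself by -0.68 (adjusted p = 2.3e-04), under the fold threshold. The peptide TWS1, the protease ALE1 and the receptor GSO1 were thus lower in 3n adm-2 seeds. GSO2, also on the list, was not among the 5 lower genes.

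The 2 ESF1 genes, whose peptides come from the central cell and endosperm and shape the suspensor, were higher and had a mean under 1 RPKM in 2n seeds. ESF1.2 had 29.1 and 29.9 RPKM in 3n adm-2 seeds, 83.5 and 97.3 RPKM in 3n seeds and 0.681 and 0.678 RPKM in 2n seeds, a log2 fold change of 5.25 ± 0.17 (SE, with an adjusted p of 2.0e-07). ESF1.3 had 10.7 and 10.0 RPKM in 3n adm-2 seeds, 22.3 and 36.3 RPKM in 3n seeds and 0.155 and 0.112 RPKM in 2n seeds, a log2 fold change of 5.49 ± 0.21 (SE, with an adjusted p of 6.6e-07). Both were lower than in 3n seeds, with log2 fold changes against 3n of -1.61 (adjusted p = 0.0026) for ESF1.2 and -1.45 (adjusted p = 0.0077) for ESF1.3.

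Cell division genes were lower in part. Of 25 genes of mitosis and cytokinesis, all past the limit, 8 were lower and 17 not called in 3n adm-2 seeds, with a median of -0.79, beside 20 lower and a median of -1.26 in 3n seeds. KNOLLE, the syntaxin that fuses vesicles at the cell plate, had 107 and 102 RPKM in 3n adm-2 seeds, 41.8 and 26.9 RPKM in 3n seeds and 289 and 289 RPKM in 2n seeds, a log2 fold change of -1.47 ± 0.21 (SE, with an adjusted p of 9.6e-04). PLEIADE, the MAP65 protein of the phragmoplast midline, had 7.50 and 7.73 RPKM in 3n adm-2 seeds, 4.71 and 4.14 RPKM in 3n seeds and 26.1 and 24.1 RPKM in 2n seeds, a log2 fold change of -1.71 ± 0.10 (SE, with an adjusted p of 5.1e-06). HINKEL, a kinesin needed for phragmoplast expansion, differed by -1.35 (adjusted p = 7.4e-05). All 3 genes lay between the 3n and the 2n libraries.

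Of 14 genes of DNA replication 1 was lower (7.14%, near the 7.28% of all genes), and the median was -0.66. The lower gene was TSO2, a ribonucleotide reductase subunit, with 27.2 and 27.5 RPKM in 3n adm-2 seeds, against 58.2 and 56.4 RPKM in 2n seeds. A list of core histones, drawn by product, had 43 genes past the limit. It took in the maturation regulator LEC1, annotated as a histone superfamily protein, and so holds more than core histones. Of the 43, 2 were higher (4.65%, beside 8.01% of all genes), with a median of -0.20. Of the 2, 1 had a mean under 1 RPKM in 2n seeds. One of the 2, AT1G75600, a histone superfamily gene by its product, had 44.5 and 44.3 RPKM in 3n adm-2 seeds, against 0.186 and 0.462 RPKM in 2n seeds, a log2 fold change of 6.79 (adjusted p = 5.6e-07).

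Paternally expressed genes (PEGs) included several that were higher than in 2n seeds. Of 16 PEGs in the study's set, 11 passed the limit, and 9 were called higher, with a median of 3.55, beside 3.95 in 3n seeds. The 6 with a mean under 1 RPKM in 2n seeds were among the 9 and had passed only through 3n adm-2 seeds, and of the 5 with at least 1 RPKM, 3 were higher. The rank product method called 0 of the 11. The sizes depended on the pseudocount, with a median of 2.03 at a pseudocount of 1 and 3.92 at 0.01. PEG7, a protein kinase gene, had 5.45 and 5.59 RPKM in 3n adm-2 seeds, 7.34 and 8.97 RPKM in 3n seeds and 0.0748 and 0.0135 RPKM in 2n seeds, a log2 fold change of 5.32 ± 0.22 (SE, with an adjusted p of 9.8e-07). PEG3, an F-box gene, had 3.81 and 3.39 RPKM in 3n adm-2 seeds, 4.40 and 5.51 RPKM in 3n seeds and 0.0233 and 0.0380 RPKM in 2n seeds, a log2 fold change of 4.82 ± 0.17 (SE, with an adjusted p of 3.9e-07). HDG10, a homeodomain gene, had 1.84 and 2.201 RPKM in 3n adm-2 seeds, 4.42 and 5.06 RPKM in 3n seeds and 0.0129 and 0.0140 RPKM in 2n seeds, a log2 fold change of 4.22 ± 0.19 (SE, with an adjusted p of 1.5e-06). With pseudocounts of 1 and 0.01 the change was 2.64 and 6.95 for PEG7, 2.16 and 6.49 for PEG3 and 1.57 and 6.43 for HDG10. The 3 genes were at or under 0.1 RPKM in 2n seeds and above 1 RPKM in every triploid library.

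SUVH7, a histone methyltransferase homolog, had 3.19 and 3.17 RPKM in 3n adm-2 seeds, 3.09 and 3.16 RPKM in 3n seeds and 0.0883 and 0.133 RPKM in 2n seeds. PKR2, a chromatin remodeller, had 17.8 and 16.2 RPKM in 3n adm-2 seeds, 14.2 and 16.5 RPKM in 3n seeds and 2.60 and 2.58 RPKM in 2n seeds. Both were level between the triploid groups, while YUC10, an auxin synthesis enzyme, and HDG10 were lower than in 3n seeds, with log2 fold changes against 3n of -1.07 (adjusted p = 0.005) for YUC10 and -1.19 (adjusted p = 0.011) for HDG10. VIM5 and FXG1 were the 2 members not called against 2n seeds, at 0.71 (adjusted p = 4.4e-04) and -0.49 (adjusted p = 0.025).

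**Figure D4:**
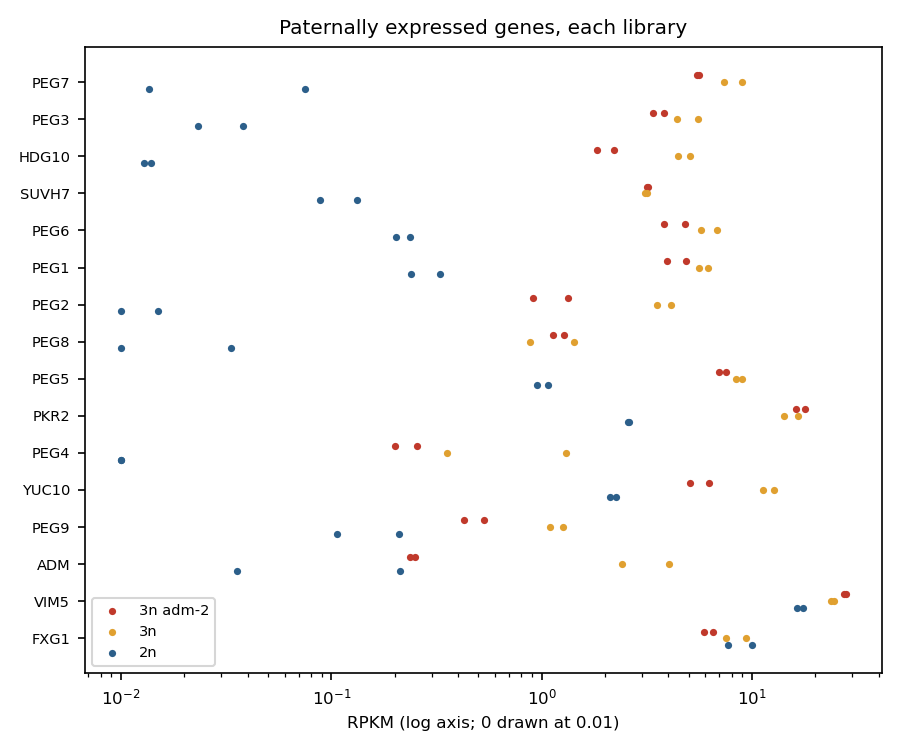
RPKM (log axis, values of 0 drawn at 0.01) of each library for all 16 PEGs, with 3n adm-2 in red, 3n in orange and 2n in blue. For SUVH7 the red points lie at 3.19 and 3.17 RPKM next to the orange ones, and for ADM they lie at 0.251 and 0.237 RPKM, below the orange ones at 2.42 and 4.01 RPKM.

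Polycomb repressive complex 2 (PRC2), which silences many of these genes by histone methylation, was measured with 8 subunits. FIS2 and MEA, the subunits of the endosperm complex, were higher in 3n adm-2 seeds (25% of the 8, beside 8.01% of all genes) and the other 6 were not called. FIS2 had a mean under 1 RPKM in 2n seeds, and of the 7 with at least 1 RPKM only MEA was higher. FIS2 had 3.43 and 3.80 RPKM in 3n adm-2 seeds, 2.56 and 2.53 RPKM in 3n seeds and 0.965 and 0.913 RPKM in 2n seeds, a log2 fold change of 1.84 ± 0.15 (SE, with an adjusted p of 4.1e-05). MEA had 2.54 and 2.40 RPKM in 3n adm-2 seeds, 2.36 and 2.27 RPKM in 3n seeds and 0.839 and 1.36 RPKM in 2n seeds, a log2 fold change of 1.13 ± 0.26 (SE, with an adjusted p of 0.0087), a call lost with a pseudocount of 1, without 3n adm-2 replicate 1 and without 2n replicate 1 (adjusted p up to 0.059 over the alternatives). CLF, the enzyme of vegetative tissue, differed by -0.65 (adjusted p = 0.0037), and FIE, shared by all complexes, by -0.55 (adjusted p = 4.0e-04).

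Pectin degradation genes were called in both directions. Of 160 listed genes for pectin degradation (polygalacturonases, pectate lyases and pectin methylesterases), 68 passed the limit, and 12 were higher and 15 lower, with a median of -0.12. All 8 with a mean under 1 RPKM in 2n seeds were among the higher, as were 708 of the 877 such genes in the comparison. Of the 60 with at least 1 RPKM, 4 were higher. Of the 15 lower genes 4 had a mean under 1 RPKM in 3n adm-2 seeds. The 12 fell to 6 with only the 4 libraries in the fit and without 3n adm-2 replicate 1 or 2. AT4G32370, a pectin lyase-like gene, had 38.1 and 35.5 RPKM in 3n adm-2 seeds, 33.9 and 33.3 RPKM in 3n seeds and 0.0824 and 0.119 RPKM in 2n seeds, a log2 fold change of 7.53 ± 0.10 (SE, with an adjusted p of 5.9e-09). AT3G59850, a gene of the same superfamily, had 0.491 and 0.234 RPKM in 3n adm-2 seeds, 0 and 0.0551 RPKM in 3n seeds and 6.69 and 7.72 RPKM in 2n seeds, a log2 fold change of -4.04 ± 0.32 (SE, with an adjusted p of 3.8e-05). Both passed the limit only through the group in which they were high, 3n adm-2 seeds for AT4G32370 and 2n seeds for AT3G59850. The pair is thus not read as a result about the superfamily.

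Genes of the superfamily of plant invertase and pectin methylesterase inhibitors were called higher more often than lower. The annotation does not say which of these enzymes a member inhibits. Of 78 listed genes 35 passed, 20 higher and 2 lower, with a median of 1.32, beside 20 higher, 3 lower and a median of 2.44 in 3n seeds. Of the 25 members with a mean of at least 1 RPKM in 2n seeds, 11 were higher. AT5G46960 had 485 and 484 RPKM in 3n adm-2 seeds, 671 and 822 RPKM in 3n seeds and 2.54 and 1.74 RPKM in 2n seeds, a log2 fold change of 7.78 ± 0.25 (SE, with an adjusted p of 2.1e-07). AT5G46950 had 361 and 339 RPKM in 3n adm-2 seeds, against 2.98 and 2.16 RPKM in 2n seeds, a log2 fold change of 7.05 (adjusted p = 1.5e-07). AT2G01610 was lower, with 5.20 and 5.05 RPKM in 3n adm-2 seeds, against 29.3 and 30.8 RPKM in 2n seeds, a log2 fold change of -2.53 (adjusted p = 0.0012).

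Genes of growth regulators were split within families. Of 9 gibberellin oxidases past the limit, 2 were higher, both with a mean under 1 RPKM in 2n seeds, and 2 lower. The shares were 22.2% each, beside 8.01% and 7.28% of all genes. GA20OX5, a gibberellin synthesis enzyme, had 20.4 and 18.8 RPKM in 3n adm-2 seeds, 25.7 and 26.3 RPKM in 3n seeds and 0.0732 and 0 RPKM in 2n seeds, a log2 fold change of 7.23 ± 0.22 (SE, with an adjusted p of 1.5e-07). GA20OX3, of the same enzyme family, had 24.6 and 24.7 RPKM in 3n adm-2 seeds, 1.89 and 1.27 RPKM in 3n seeds and 230.2 and 225 RPKM in 2n seeds, a log2 fold change of -3.20 ± 0.40 (SE, with an adjusted p of 4.1e-04). The paralogs thus moved in opposite directions, and GA20OX3 lay between the 3n and 2n libraries.

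Auxin synthesis genes were also called in both directions, with 2 higher and 2 lower of 7 past the limit. The shares were 28.6% each, beside 8.01% and 7.28% of all genes. Of the 6 with a mean of at least 1 RPKM in 2n seeds, 1 was higher. TAR1, a tryptophan aminotransferase, had 4.49 and 4.79 RPKM in 3n adm-2 seeds, 7.04 and 9.71 RPKM in 3n seeds and 0.0242 and 0 RPKM in 2n seeds, a log2 fold change of 5.41 (adjusted p = 8.6e-07), whereas TAA1, the founding member of the family, had 3.40 and 3.20 RPKM in 3n adm-2 seeds, 5.08 and 3.75 RPKM in 3n seeds and 11.98 and 9.36 RPKM in 2n seeds, a log2 fold change of -1.65 (adjusted p = 3.7e-04). CKX2, a cytokinin oxidase that acts downstream of the HAIKU genes in seed size control, had 20.14 and 19.8 RPKM in 3n adm-2 seeds, 36.1 and 39.6 RPKM in 3n seeds and 0.585 and 0.405 RPKM in 2n seeds, a log2 fold change of 5.09 ± 0.21 (SE, with an adjusted p of 9.7e-07). CKX3 and the cytokinin synthesis gene IPT6 were lower, with log2 fold changes of -2.93 (adjusted p = 3.7e-05) and -2.89 (adjusted p = 0.0026). Both had a mean under 1 RPKM in 3n adm-2 seeds and so passed the limit only through 2n seeds. TAR1 and CKX2 had a mean under 1 RPKM in 2n seeds and so passed it only through 3n adm-2 seeds. Of the 7 cytokinin genes past the limit, 1 was higher and 2 lower. Among the 6 with a mean of at least 1 RPKM in 2n seeds, 0 were higher. The call of IPT6 was lost with a pseudocount of 0.01. Of 8 genes of abscisic acid synthesis and breakdown past the limit, 1 was higher (12.5%, beside 8.01% of all genes) and 7 were not called. The higher gene was NCED6, an endosperm enzyme of abscisic acid synthesis. It had 29.4 and 30.9 RPKM in 3n adm-2 seeds, against 10.8 and 10.13 RPKM in 2n seeds, a log2 fold change of 1.52 (adjusted p = 8.4e-06).

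Transporters of nutrients into the seed were measured too. Of 14 genes of sugar import past the limit, 5 were lower (35.7%, beside 7.28% of all genes). Only 1 was higher (7.14%, near the 8.01% of all genes), and it alone had a mean under 1 RPKM in 2n seeds. SWEET11, a sucrose exporter of the seed coat, had 5.32 and 5.94 RPKM in 3n adm-2 seeds, 2.25 and 2.05 RPKM in 3n seeds and 38.4 and 34.9 RPKM in 2n seeds, a log2 fold change of -2.68 ± 0.38 (SE, with an adjusted p of 7.9e-04). ATBFRUCT1, a cell wall invertase, had 1.39 and 1.52 RPKM in 3n adm-2 seeds, against 9.84 and 6.66 RPKM in 2n seeds, a log2 fold change of -2.40 (adjusted p = 5.4e-05). SUC5, which takes sucrose into the endosperm, had 49.3 and 50.2 RPKM in 3n adm-2 seeds, against 113 and 96.3 RPKM in 2n seeds, a log2 fold change of -1.07 (adjusted p = 6.5e-05). SUC1 was the higher member, with 2.94 and 3.07 RPKM in 3n adm-2 seeds, against 0.817 and 1.15 RPKM in 2n seeds.

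Of 11 amino acid transporters 2 were higher (18.2%, beside 8.01% of all genes), AAP8 and AAP4. Both had a mean under 1 RPKM in 2n seeds, and none of the other 9 was higher. AAP8, which imports amino acids early in seed growth, had 7.36 and 6.31 RPKM in 3n adm-2 seeds, 19.2 and 20.8 RPKM in 3n seeds and 0.861 and 0.945 RPKM in 2n seeds, a log2 fold change of 2.79 ± 0.11 (SE, with an adjusted p of 7.3e-07), and was lower than in 3n seeds, with -1.54 (adjusted p = 0.001) against 3n. AAP4 differed by 1.07 (adjusted p = 0.013), a call lost with a pseudocount of 1, without 3n adm-2 replicate 1 or 2 and without 2n replicate 2. Of 9 cellulose synthases 1 was lower, CESA9 (11.1%, beside 7.28% of all genes). It had 1.54 and 1.49 RPKM in 3n adm-2 seeds, against 4.18 and 3.10 RPKM in 2n seeds. The call was lost with a pseudocount of 1.

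Photosynthesis genes were lower in part, by a count that depended on the 2n replicate. Of 56 photosystem and light-harvesting genes past the limit, 18 were lower and 38 not called, with a median of -0.79, beside 25 lower and -0.95 in 3n seeds. The count was 9 without 2n replicate 1 and 27 without 2n replicate 2, and 55 of the 56 were higher in 2n replicate 1 than in 2n replicate 2. LHCB2.2, a light-harvesting protein of photosystem II, had 64.5 and 64.1 RPKM in 3n adm-2 seeds, 56.4 and 65.5 RPKM in 3n seeds and 246 and 210.1 RPKM in 2n seeds, a log2 fold change of -1.82 ± 0.12 (SE, with an adjusted p of 1.4e-05). LHCB2.3 had 4.25 and 3.80 RPKM in 3n adm-2 seeds, against 31.8 and 22.1 RPKM in 2n seeds, a log2 fold change of -2.69 (adjusted p = 2.2e-04). Members of this family are close in sequence, so values of single members are uncertain.

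Late embryogenesis abundant (LEA) proteins, which protect drying seeds, gave 4 higher (25%) and 1 lower gene (6.25%) of 16 past the limit. The shares of all genes were 8.01% and 7.28%. Of the 14 with a mean of at least 1 RPKM in 2n seeds, 2 were higher. AT2G46140 had 98.3 and 87.2 RPKM in 3n adm-2 seeds, 90.4 and 90.7 RPKM in 3n seeds and 10.9 and 10.5 RPKM in 2n seeds, a log2 fold change of 3.11 ± 0.10 (SE, with an adjusted p of 2.8e-07), and LEA4-5 had 3.88 and 3.06 RPKM in 3n adm-2 seeds, against 0.347 and 0.108 RPKM in 2n seeds, a log2 fold change of 3.54 (adjusted p = 1.0e-04). The lower gene was AT2G23120, at -1.64 (adjusted p = 0.027), a call lost when any 1 of the 4 libraries was left out.

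**Figure D5:**
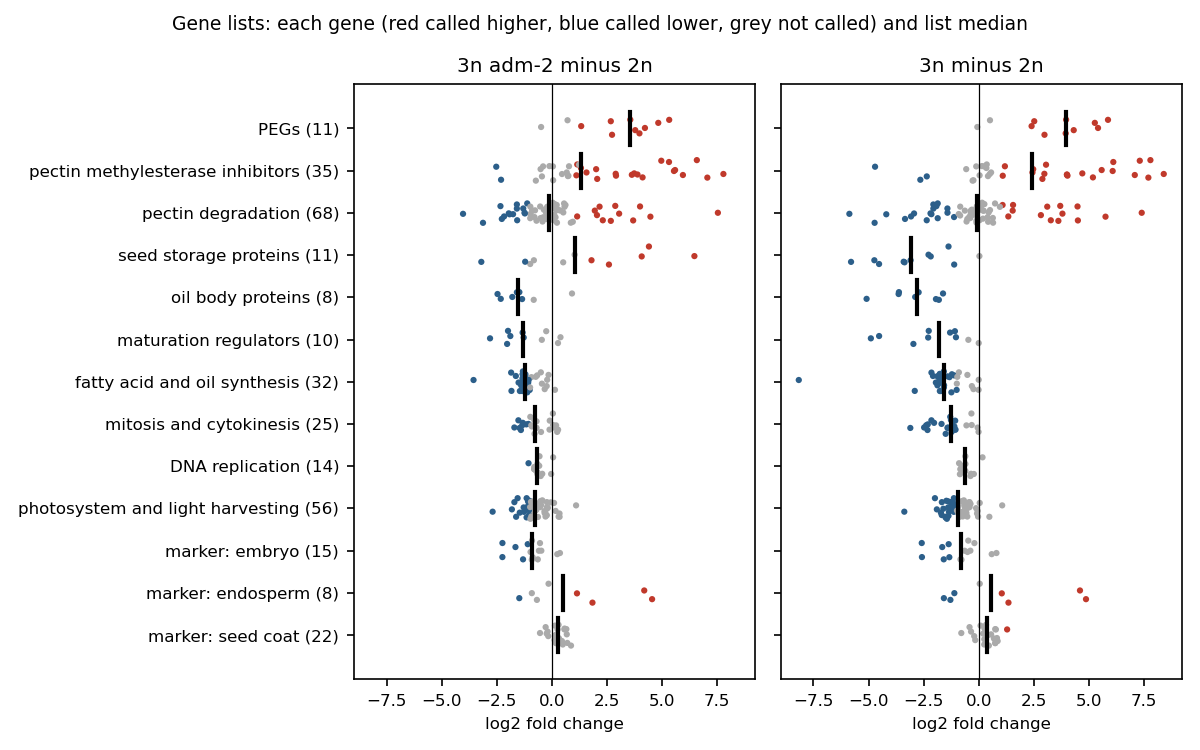
Log2 fold changes of the genes past the limit in 13 lists, 3n adm-2 minus 2n on the left and 3n minus 2n on the right, with red for called higher, blue for called lower, grey for not called, the list median as a black bar and the number of genes in brackets. The median of the storage proteins lies at 1.03 on the left and at -3.09 on the right, while that of the PEGs is 3.55 on the left and 3.95 on the right. The panels share the 2n libraries.

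The 8 largest increases were in genes with a mean under 3 RPKM in 2n seeds, 5 of them under 1 RPKM. AT2G02498, an uncharacterized gene, had 778 and 748 RPKM in 3n adm-2 seeds, 948 and 1374 RPKM in 3n seeds and 4.22 and 1.24 RPKM in 2n seeds, a log2 fold change of 8.31 ± 0.46 (SE, with an adjusted p of 4.6e-06). MPK10, a MAP kinase gene, had 68.2 and 68.6 RPKM in 3n adm-2 seeds, 63.2 and 62.8 RPKM in 3n seeds and 0.167 and 0.117 RPKM in 2n seeds, a log2 fold change of 8.15 ± 0.11 (SE, with an adjusted p of 4.6e-09). AT2G21465, a defensin-like gene, had 399.6 and 384 RPKM in 3n adm-2 seeds, against 2.91 and 0.884 RPKM in 2n seeds, a log2 fold change of 7.83 (adjusted p = 5.8e-06). In each every triploid library was far above both 2n libraries.

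AT5G15000, of the ECA1 gametogenesis family, had 37.4 and 38.3 RPKM in 3n adm-2 seeds, against 0.143 and 0 RPKM in 2n seeds. LCR37, a low-molecular-weight cysteine-rich gene, had 24.9 and 21.0 RPKM in 3n adm-2 seeds and was listed at 0 in both 2n libraries. AGL40, a transcription factor gene, had 118 and 122 RPKM in 3n adm-2 seeds, 103 and 115 RPKM in 3n seeds and 0.569 and 0.154 RPKM in 2n seeds, a log2 fold change of 8.19 (adjusted p = 1.2e-06), and AGL35 differed by 7.85 (adjusted p = 7.1e-06). With AT5G46960 these made up the 8 largest increases.

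The largest decreases after AT1G50650 included 2 predicted sugar transferases of the core-2/I-branching type. AT1G10880 had 2.62 and 2.31 RPKM in 3n adm-2 seeds, 0.0925 and 0.121 RPKM in 3n seeds and 38.9 and 38.8 RPKM in 2n seeds, a log2 fold change of -3.93 ± 0.49 (SE, with an adjusted p of 4.4e-04). AT5G25330 had 4.98 and 4.90 RPKM in 3n adm-2 seeds, 0.373 and 0.224 RPKM in 3n seeds and 63.4 and 66.6 RPKM in 2n seeds, a log2 fold change of -3.69 ± 0.72 (SE, with an adjusted p of 0.0044). AT1G28700, a nucleotide-diphospho-sugar transferase family gene, had 4.54 and 4.72 RPKM in 3n adm-2 seeds, 0.343 and 0.0787 RPKM in 3n seeds and 63.3 and 72.5 RPKM in 2n seeds, a log2 fold change of -3.84 ± 0.77 (SE, with an adjusted p of 0.0048). In these 3 genes the 3n adm-2 libraries lay between the 3n and the 2n libraries.

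The uncharacterized gene AT3G61930 and the cysteine-rich genes LCR16 and AT4G17718 completed this group with AT3G59850, at -3.71 (adjusted p = 1.3e-04), -3.90 (adjusted p = 2.7e-04) and -3.92 (adjusted p = 2.4e-04). Of these AT4G17718 had 0.109 and 0 RPKM in 3n adm-2 seeds, against 1.80 and 2.41 RPKM in 2n seeds, and LCR16 had 0.238 and 0.550 RPKM in 3n adm-2 seeds, against 6.97 and 6.79 RPKM in 2n seeds. The groups did not overlap in either gene, and both were under 1 RPKM in 3n adm-2 seeds.

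The most abundant genes called lower were 2 genes with the same superfamily annotation as AT1G32280. AT5G38170 had 1369.6 and 1222 RPKM in 3n adm-2 seeds, 329 and 229 RPKM in 3n seeds and 6029 and 6083 RPKM in 2n seeds, a log2 fold change of -2.23 ± 0.22 (SE, with an adjusted p of 1.3e-04). AT5G38160 had 1002 and 858 RPKM in 3n adm-2 seeds, 252 and 192 RPKM in 3n seeds and 3849 and 3835 RPKM in 2n seeds, a log2 fold change of -2.05 ± 0.20 (SE, with an adjusted p of 1.0e-04). The pair shares no stretch of 50 bases. In both genes 3n adm-2 seeds lay between 3n and 2n seeds.

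The other abundant decreases were LCR69, AT1G12080, a calcium-binding vacuolar protein by its product, and ENODL3, an early nodulin-like protein, at -1.31 (adjusted p = 0.0098), -2.49 (adjusted p = 3.5e-04) and -2.03 (adjusted p = 0.001). The call of LCR69 was lost without 3n adm-2 replicate 1 or 2 and without 2n replicate 1, with an adjusted p of up to 0.064 over the alternatives. ENODL3 had 313 and 301 RPKM in 3n adm-2 seeds, 61.6 and 38.2 RPKM in 3n seeds and 1191 and 1323 RPKM in 2n seeds.

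The abundant increases were LTP3, AT1G54410, AT5G63087, AT5G51105 and AT4G12870. LTP3, a lipid transfer protein, had 1683 and 1700.2 RPKM in 3n adm-2 seeds, 2250.2 and 2378 RPKM in 3n seeds and 771 and 798 RPKM in 2n seeds, a log2 fold change of 1.11 (adjusted p = 9.4e-04). AT1G54410, a dehydrin, had 1453 and 1301 RPKM in 3n adm-2 seeds, 1125 and 1499 RPKM in 3n seeds and 324 and 473 RPKM in 2n seeds, a log2 fold change of 1.81 (adjusted p = 3.4e-04). AT5G63087, a thionin family gene, had 1643 and 1347 RPKM in 3n adm-2 seeds, 1513 and 2064 RPKM in 3n seeds and 69.6 and 74.5 RPKM in 2n seeds, a log2 fold change of 4.37 (adjusted p = 7.3e-07). In all 3 genes the 3n adm-2 libraries were above both 2n libraries. Those of AT1G54410 and AT5G63087 were near the 3n libraries, while those of LTP3 lay between the 2n and the 3n libraries.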

How the data were processed

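The libraries were made with the TruSeq RNA kit. After quality trimming, the authors aligned reads to TAIR10 by TopHat2 2.0.10 with 1 alignment allowed for a read, and the deposited values are RPKM. The program that made the RPKM values is not given in the sources used here. Reads shared by close paralogs, by overlapping or by antisense genes cannot be assigned to 1 gene with certainty.

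Values were analysed as log2(RPKM + 0.1) with limma 3.58.1 (lmFit and trended eBayes) in R 4.3.3, in 1 fit of all 10 libraries over 26601 genes (detected in 2 or more libraries), with 5 residual degrees of freedom and Benjamini-Hochberg adjustment. A fold change on this scale understates the change of low genes. The study's rank product method (100 permutations, pfp under 0.05) was rewritten in Python 3.11.15 as an alternative. On simulated data for 3n adm-2 minus 2n, over 26601 genes, limma recovered 100% of 100 genes changed by 1.5 and 100% of 100 changed by 3, with 3 false calls in all. The simulated noise was normal, with a spread set by gene level alone, and far fewer genes changed than in the data. These rates thus do not carry over to the real libraries. Annotation came from TAIR10.1, which matched 32835 of the 33602 IDs.

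The genes compared, the gene lists and the tests were chosen with earlier results of these data known. Named were OSD1, ADM, the 8 largest changes and the 5 most abundant called genes in each direction, overshooting genes, and up to 3 called genes per list and direction, with further members where a list was described. Alternatives were pseudocounts of 1 and 0.01, other filters, size factors, the 4 libraries alone, a replicate block, the rank product, no fold threshold, and leaving out each library. Some listed genes and 1 promoter sequence are not reported here.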

Additional observations from a re-analysis of the deposited data

How the results depend on the processing

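With 2 libraries per group, p-values rest on 5 residual degrees of freedom, and the depth of the RPKM values is unknown. The 1480 higher and 1344 lower genes became 158 and 104 by the rank product, and 4536 and 4686 by adjusted p alone, with no fold threshold. Leaving out 1 library at a time gave 1331 to 1561 higher and 1144 to 1435 lower genes. The other settings stayed within 1.5 times, the lowest being 1194 and 1055 with a pseudocount of 1. Size factors moved the median of all genes to -0.03.

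The replicate numbers did not pair the samples (r = -0.02 between the deviations of same-numbered 3n adm-2 and 2n libraries), and a replicate block gave 1476 higher and 1336 lower genes. It changed the calls of 3 named genes, VGD1, VGDH1 and BCP1.

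Of 157 named genes, 134 kept their direction and their side of the threshold under all 11 alternatives, and 23 did not under at least 1. The direction turned for 1, PAP85, at -0.46 without 2n replicate 2, against 0.51 with all libraries, neither of them called. The cause was not tested.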

Other observations

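Several families were read by product in the annotation after their values had been seen, so their counts are descriptions and no test was made of them. Many small secreted proteins rich in cysteine were higher in 3n adm-2 seeds than in 2n seeds. Of 87 defensin-like genes 36 passed the RPKM limit, 33 of them higher and 1 lower, and 43 of the 87 were listed at 0 in both 2n libraries. The 18 that had a mean under 1 RPKM in 2n seeds, and so passed only through 3n adm-2 seeds, were all higher, and of the 18 with at least 1 RPKM, 15 were higher. Of 80 low-molecular-weight cysteine-rich genes 41 passed, 31 higher and 6 lower, and 10 were higher of the 20 with at least 1 RPKM in 2n seeds. Of 81 ECA1-type genes 14 passed, 13 of them higher, and of 63 genes of the self-incompatibility S1 type 19 passed, 16 of them higher. With at least 1 RPKM in 2n seeds, 2 of 3 ECA1-type and 3 of 6 S1-type genes were higher. AT3G24068, an abundant S1-type gene, had 329 and 285 RPKM in 3n adm-2 seeds, 342 and 341 RPKM in 3n seeds and 9.22 and 9.37 RPKM in 2n seeds, a log2 fold change of 5.03 (adjusted p = 3.5e-08). The counts of higher genes in 3n seeds were 33, 31, 13 and 16 in the same 4 families, against the same 2n libraries.

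Growth-regulating factors, which promote cell proliferation in young organs, were on the other side. Of 9 genes 8 passed the limit and 6 were lower in 3n adm-2 seeds, with a median of -1.44, beside 7 and a median of -2.13 in 3n seeds. AT2G36400, growth-regulating factor 3, had 15.1 and 16.5 RPKM in 3n adm-2 seeds, 8.96 and 7.83 RPKM in 3n seeds and 46.8 and 52.6 RPKM in 2n seeds, a log2 fold change of -1.65 (adjusted p = 6.2e-05). AT3G13960, growth-regulating factor 5, had 13.0 and 13.9 RPKM in 3n adm-2 seeds, 13.2 and 10.14 RPKM in 3n seeds and 48.9 and 41.9 RPKM in 2n seeds, a log2 fold change of -1.74 (adjusted p = 1.1e-04). In both genes the 3n adm-2 libraries were below both 2n libraries, as in 40.1% of all genes tested.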
